A study of Mus musculus with 14 samples.

Results

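C2C12 mouse myoblasts depleted of Klf5 and held in differentiation medium for 3 days were set beside control cells held in it for 2 days. The comparison used 2 of the 8 polyA RNA-seq libraries, siKlf5 day 3 and siCtrl day 2, over the 11591 of 24016 listed transcripts whose mean over the 8 libraries was at least 10 FPKM. It asks whether the depleted cells resembled an earlier control stage or held an expression state that no control day showed. Both groups were C2C12 cells transfected with siRNA through Lipofectamine RNAiMAX, a pool of siRNAs against Klf5 in one and control siRNA in the other. Both were then switched to medium with horse serum, in which the cells leave the cell cycle and fuse. The other 6 libraries were siCtrl on days 0, 1 and 3 and siKlf5 on days 0, 1 and 2, and they served as the scale. C2C12 is an immortalised line derived from adult mouse muscle, and the depletion by siRNA is transient and partial. Each siRNA and day had 1 library, so no difference below has a replicate check, none carries a p-value, and every fold describes these libraries only.

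Myoblasts become muscle fibres in an ordered program. Myod1 and Myf5 mark the committed cell, Myog starts terminal differentiation together with Mef2 factors, cell division genes are switched off, and fusion genes and the sarcomere genes follow. Klf5 is a zinc-finger transcription factor of the Krüppel-like family, best known in epithelia and smooth muscle, that binds GC-rich and CACCC-type sequences. Sarcomere proteins come as embryonic, slow or cardiac, and fast isoforms, and cultured myotubes express a mixture of them.

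The siRNA target was lower in every siKlf5 library. Klf5 (NM_009769, mm9 chromosome 14, 99697910 to 99712628, plus strand) was at 224, 381, 614 and 933 FPKM in siCtrl on days 0 to 3 and at 35.1, 160, 192 and 211 FPKM in siKlf5. The siKlf5 day 3 value was therefore below siCtrl day 1 and just under siCtrl day 0. Against siCtrl day 2 the difference was -1.54 on the log2 scale, with a 95% interval of -1.85 to -1.25 for counting error.

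The libraries differed in depth and in composition, and siCtrl day 2 was unlike the rest. It held 20301506 exon reads recovered from the values, against 10864084 for siKlf5 day 3 and 7850497 to 12366627 for the other 6. It also had the lowest value of the 45S ribosomal RNA precursor Rn45s, at 7680 FPKM against 17553 FPKM in siKlf5 day 3, and of Rpph1, the RNA of RNase P, at 191 against 691 FPKM. The transcript ranked 10 by reads per base had 1.42 times as many reads per base in siCtrl day 2 as in siKlf5 day 3, while all reads stood at 1.87 times. The median log2 difference ran from -0.17 in the third of 10 equal groups by mean level to 0.11 in the top group. Centring each library within bins of mean expression removes that trend, and the values it gives stand beside the results it moves.

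By distance over all transcripts, siKlf5 day 3 was about as near to siCtrl day 2 as to siCtrl day 3. Its median absolute log2 difference was 0.43 to siCtrl day 0, 0.32 to day 1, 0.22 to day 2 and 0.19 to day 3. The distance to its own siKlf5 day 2 library was also 0.19, and the 2 control libraries of days 2 and 3 were 0.20 apart. The rank correlation across transcripts put day 2 ahead, with Spearman's rho of 0.974 to siCtrl day 2 and 0.969 to siCtrl day 3. Transcripts are not independent replicates, so these values order the libraries and no more.

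Of the 11591 transcripts, 1059 (9.14%) were over 1.5-fold lower in siKlf5 day 3 than in siCtrl day 2 and 453 (3.91%) were over 1.5-fold higher, and 10079 were within it. The 2 shares depended on the scaling, since the median transcript was at -0.09. Centring each library on the median ratio raised that median by 0.10 and gave 786 lower and 634 higher, and centring within 50 bins of mean expression gave 721 and 649. Against siCtrl day 3 the same library had 886 lower and 717 higher. These comparisons share the siKlf5 day 3 library and are given side by side only.

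**Figure D1:**
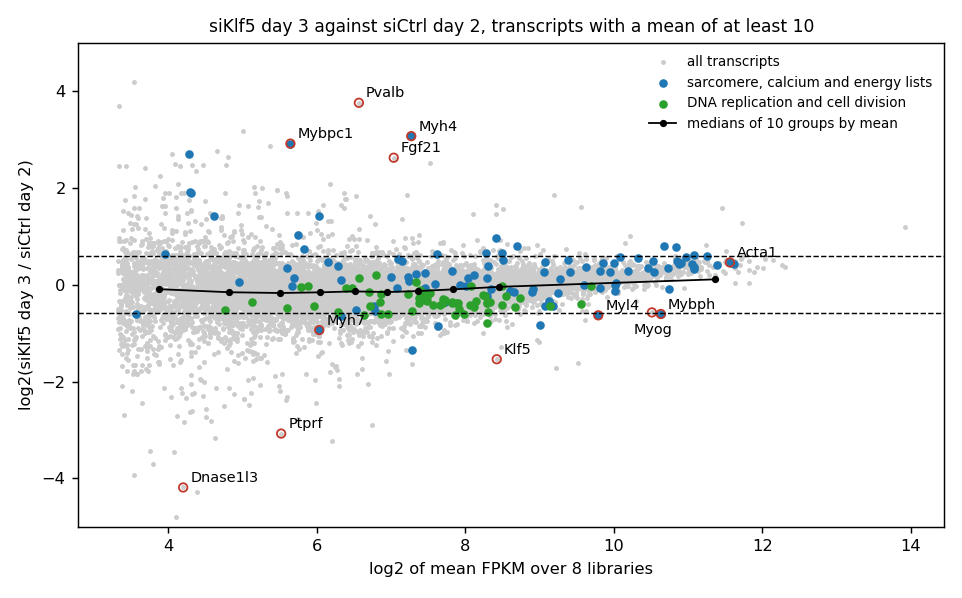
Each point is a transcript with a mean of at least 10 FPKM, with the log2 of its mean over 8 libraries on the x axis and log2(siKlf5 day 3 / siCtrl day 2) on the y axis. Dashed lines mark 1.5-fold and the black line joins the medians of 10 equal groups by mean level. 75 points lie beyond the plotted range. Among transcripts with exons of at least 200 bp and at least 50 FPKM in either library, Pvalb (3.76), Myh4 (3.07) and Mybpc1 (2.92) are highest and Dnase1l3 (-4.19) and Ptprf (-3.07) lowest, and the cell division genes cluster just under 0.

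The position of each library on the control course was then measured. For the 1247 transcripts that rose at least 2-fold between siCtrl day 0 and day 3, a position of 0 stands for siCtrl day 0 and 1 for siCtrl day 3 by construction. The median position was 0.49 in siCtrl day 1 and 0.90 in siCtrl day 2. For siKlf5 days 1, 2 and 3 it was 0.59, 0.81 and 0.89. On these rising transcripts siKlf5 day 3 was thus level with siCtrl day 2, and which of the 2 was ahead changed with the scaling. The spread of siKlf5 day 3 was wider, with quartiles of 0.67 and 1.04 against 0.78 and 1.01 in siCtrl day 2. It was within 1.5-fold of siCtrl day 2 for 875 of the 1247 (70.2%). Past that fold 211 were lower (16.9%) and 161 were higher (12.9%), beside 9.14% and 3.91% of all transcripts.

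The 1172 transcripts that fell at least 2-fold over the same course gave another order. The median position was 0.64 in siCtrl day 1 and 0.63 in siCtrl day 2. For siKlf5 days 1, 2 and 3 it was 0.55, 0.63 and 0.81, so that siKlf5 day 3 was past siCtrl day 2 toward siCtrl day 3. That order held under every scaling and filter tried, and the difference of 0.18 became 0.12 under median-ratio centring and 0.10 under centring within bins of mean expression. Of the 1172, 247 (21.1%) were over 1.5-fold lower in siKlf5 day 3 than in siCtrl day 2 and 94 (8.02%) were higher. Over all transcripts those shares were 9.14% and 3.91%. The control library nearest to siKlf5 day 3 was day 3 for 35.6% of falling transcripts, day 2 for 32.4%, day 1 for 26.3% and day 0 for 5.72%. For rising transcripts it was day 2 for 41.0%, day 3 for 35.4%, day 1 for 17.2% and day 0 for 6.34%.

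**Figure D2:**
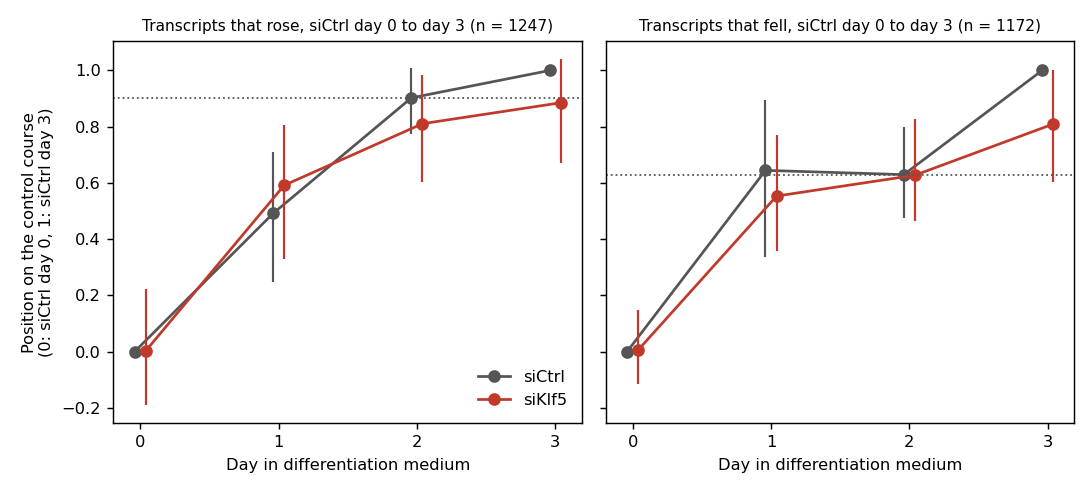
Median position on the control course (y axis, 0 for siCtrl day 0 and 1 for siCtrl day 3) against the day in differentiation medium (x axis), for transcripts that rose (left) or fell (right). Points are medians over transcripts of 1 library, vertical lines run between the quartiles, and the dotted line is siCtrl day 2. On the left siKlf5 day 3 lies at 0.89 beside 0.90 for siCtrl day 2, and on the right at 0.81 above 0.63.

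Muscle differentiation markers were used to check day 3 against day 0. Myog, Myl4, Myh3, Acta1, Ckm, Tnnt3, Tmem8c and Des were all higher on day 3 in siCtrl and in siKlf5. Their rise does not check day 2 against day 3, or siCtrl against siKlf5. Among the myogenic factors, Myog and Tead4 lay below the day 2 control. Myog (NM_031189, mm9 chromosome 1, 136186581 to 136189125, plus strand), the factor that starts terminal differentiation, was at 479, 1896, 2061 and 2293 FPKM in siCtrl on days 0 to 3. In siKlf5 it was at 328, 1517, 1740 and 1386 FPKM. The siKlf5 day 3 value was below siCtrl days 1, 2 and 3, and the difference from siCtrl day 2 was -0.57 (interval -0.71 to -0.44), which does not pass 1.5-fold. Tead4, a partner of YAP that acts in myogenesis, was the lower member past that fold, at 223 and 235 FPKM in siKlf5 days 2 and 3 against 370 and 298 FPKM in siCtrl. Its difference from siCtrl day 2 was -0.65.

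Most other members of the list were close to siCtrl day 2 or above it. Myod1, the master regulator of the lineage, was at 479 FPKM in siCtrl day 2 and 557 FPKM in siKlf5 day 3, and Myf5 was at 178 and 174 FPKM. Mef2c, which cooperates with Myog, was at 163, 315 and 218 FPKM in siCtrl day 2, siCtrl day 3 and siKlf5 day 3, so the depleted library lay between the 2 control days. Mef2a and Mef2d were at -0.19 and -0.18 on the log2 scale, Tead1 at -0.02, Vgll2 at -0.10 and Six4 at 0.14. Smarcd3, the chromatin remodeller subunit that partners Myod1, was at 0.59. Over the 12 members measured the median was -0.03, beside -0.09 over all transcripts, and turned to 0.08 under median-ratio centring. Past the fold was 1 member (8.33%) each way, beside 9.14% lower and 3.91% higher of all transcripts.

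Progenitor factors and inhibitors of myogenesis showed no common direction. Of 15 measured members, 1 was lower past 1.5-fold (6.67%) and 2 were higher (13.3%), beside 9.14% and 3.91% of all transcripts, and the median of -0.04 turned to 0.07 under median-ratio centring. The lowest were Id2 at -0.80, which holds back Myod1 by binding its partners, and the Notch pathway genes Hey1 at -0.41 and Notch1 at -0.38. The highest were Pax7, the factor of muscle stem cells, Id3, a relative of Id2, and Twist2, a repressor of differentiation. Pax7 was at 11.6 FPKM in siCtrl day 2 and 21.3 FPKM in siKlf5 day 3, Id3 at 114 and 173 FPKM, and Twist2 at 50.5 and 61.9 FPKM.

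**Figure D3:**
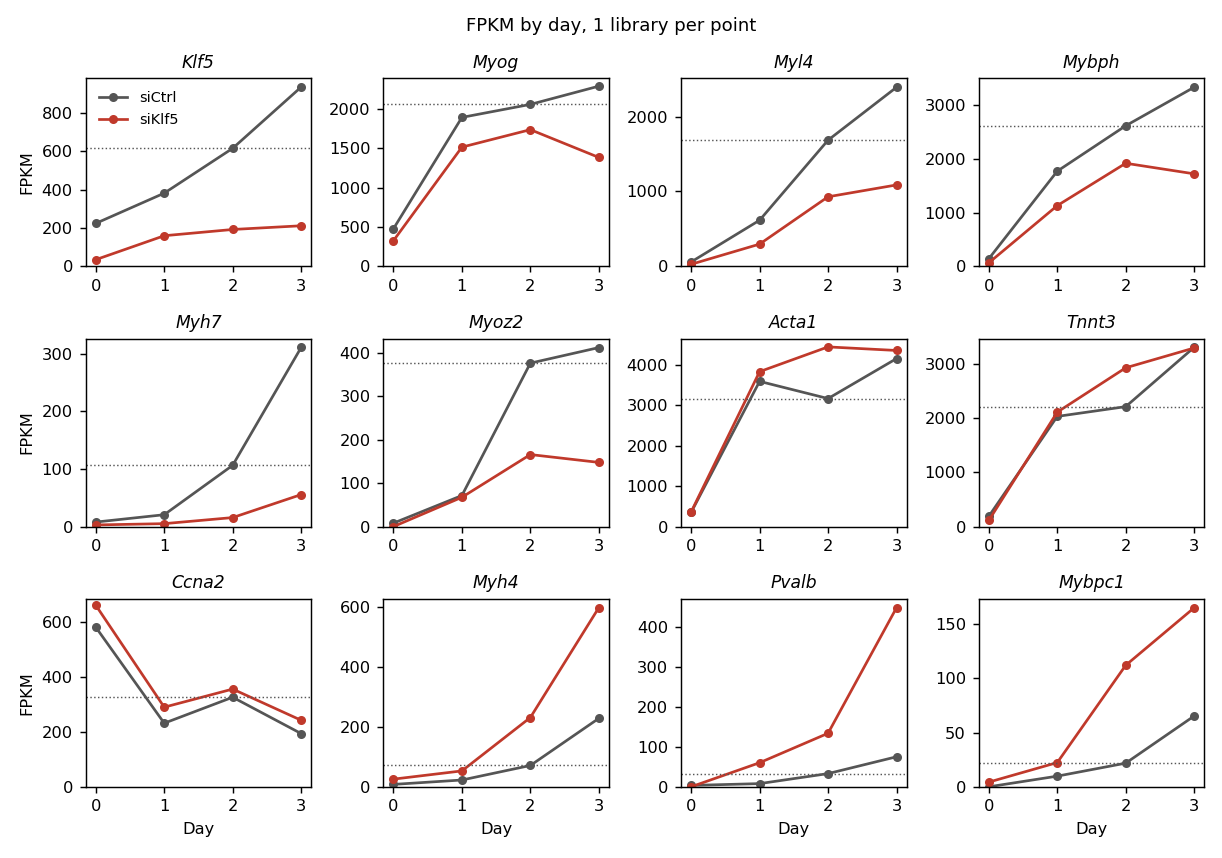
FPKM (y axis, from 0) by day in differentiation medium (x axis) for 12 genes, 1 library per point, with a dotted line at siCtrl day 2. Klf5, Myog, Myl4, Mybph, Myh7 and Myoz2 in siKlf5 day 3 lie below that line. Acta1 and Tnnt3 lie above it at about the siCtrl day 3 level. Ccna2 lies between siCtrl days 2 and 3 and near day 1, and Myh4, Pvalb and Mybpc1 lie above every control library.

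The thick filament genes split into 3 patterns. The list held 22 measured genes of myosin chains, myosin-binding and M-band proteins, with a median of 0.37. Of these 4 were lower past 1.5-fold (18.2%) and 6 higher (27.3%), beside 9.14% and 3.91% of all transcripts. The lower members were Myh7, Myl4, Mybph and Myh6. Myl4 (NM_010858, mm9 chromosome 11, 104411977 to 104448533, plus strand), the atrial and embryonic essential light chain, was at 59.5, 616, 1685 and 2390 FPKM in siCtrl and at 28.2, 298, 929 and 1087 FPKM in siKlf5. Its day 3 value in siKlf5 lay between siCtrl days 1 and 2, at -0.63 from day 2 (interval -0.84 to -0.44). Mybph, a myosin-binding protein in the same region of chromosome 1 as Myog, was at 143, 1774, 2619 and 3337 FPKM in siCtrl and at 66.8, 1132, 1921 and 1724 FPKM in siKlf5. Its siKlf5 day 3 value was just below siCtrl day 1.

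Myh7, the slow and cardiac beta myosin heavy chain, was at 7.86, 20.6, 106 and 311 FPKM in siCtrl and 2.88, 5.11, 15.7 and 55.5 FPKM in siKlf5. The difference from siCtrl day 2 was -0.94 and that from siCtrl day 3 was -2.48. Myh6, the cardiac alpha chain, was at 18.8, 52.4 and 12.3 FPKM in siCtrl day 2, siCtrl day 3 and siKlf5 day 3, with an interval against day 2 of -1.38 to 0.11 that includes 0. Near-identical stretches in the 2 adjacent genes may share reads.

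A larger number of thick filament genes were between siCtrl days 2 and 3 or level with day 3. Myh3, the embryonic myosin heavy chain, was at 2107, 2790 and 2685 FPKM in siCtrl day 2, siCtrl day 3 and siKlf5 day 3. Myl1, the fast essential light chain, was at 1680, 2662 and 2910 FPKM, and Mylpf, the fast regulatory light chain, at 2304, 3272 and 3110 FPKM. Myh1, a fast chain of adult muscle, was at 772, 1489 and 1071 FPKM.

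The third pattern lay above every control day. Myh4 (NM_010855, mm9 chromosome 11, 67051314 to 67073949, plus strand), the fastest adult myosin heavy chain, was at 7.97, 22.6, 71.2 and 228 FPKM in siCtrl and 25.6, 53.0, 231 and 598 FPKM in siKlf5. Each siKlf5 library was above the control library of its day. The difference from siCtrl day 2 was 3.07 (interval 2.86 to 3.27), and that from siCtrl day 3 was 1.39. Mybpc1, the slow-type myosin-binding protein C, was at 0, 9.82, 21.8 and 65.3 FPKM in siCtrl and at 4.31, 22.4, 112 and 165 FPKM in siKlf5.

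RefSeq promoter windows are shown for 2 genes that lay below siCtrl day 2 and 2 that lay above every control day, as the sequences on which the opposed patterns sit. Each runs 5′ to 3′ on the strand of its gene over 300 bases, from 250 before the start to 50 after it, in build GRCm38.p6, which is not the mm9 build of the values. Capitals mark the E-box CANNTG, the general site of Myod1 and Myog, and the MEF2 box, searched here as C or T, then TA, 4 bases of A or T, TA, and A or G, a pattern that reads the same on both strands.
Myog (chr1:134289754-134290053, plus strand): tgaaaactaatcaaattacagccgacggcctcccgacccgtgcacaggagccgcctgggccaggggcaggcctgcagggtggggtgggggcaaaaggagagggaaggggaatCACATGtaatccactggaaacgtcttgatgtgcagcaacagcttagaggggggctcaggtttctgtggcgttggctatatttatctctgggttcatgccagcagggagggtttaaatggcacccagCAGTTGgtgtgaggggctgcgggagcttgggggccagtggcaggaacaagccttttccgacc
Mybph (chr1:134193198-134193497, plus strand): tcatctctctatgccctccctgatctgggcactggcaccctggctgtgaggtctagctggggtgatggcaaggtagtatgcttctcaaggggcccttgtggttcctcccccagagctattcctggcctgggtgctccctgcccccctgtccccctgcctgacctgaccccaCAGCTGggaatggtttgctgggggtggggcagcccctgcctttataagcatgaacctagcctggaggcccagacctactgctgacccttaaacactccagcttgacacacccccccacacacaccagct
Myh4 (chr11:67237562-67237861, plus strand): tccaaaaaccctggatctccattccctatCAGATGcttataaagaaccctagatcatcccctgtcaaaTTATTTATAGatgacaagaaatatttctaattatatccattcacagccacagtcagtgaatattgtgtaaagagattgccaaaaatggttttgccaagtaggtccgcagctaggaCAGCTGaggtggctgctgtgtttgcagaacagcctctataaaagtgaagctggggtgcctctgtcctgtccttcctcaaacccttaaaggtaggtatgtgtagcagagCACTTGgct
Pvalb (chr15:78206351-78206650, minus strand): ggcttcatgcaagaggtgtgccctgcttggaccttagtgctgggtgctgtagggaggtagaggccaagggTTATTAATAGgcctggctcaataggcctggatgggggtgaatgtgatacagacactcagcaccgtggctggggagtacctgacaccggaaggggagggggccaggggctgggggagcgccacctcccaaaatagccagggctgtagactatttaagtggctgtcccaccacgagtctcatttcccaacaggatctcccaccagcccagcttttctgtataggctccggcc

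The windows of Myog and Mybph held 2 and 1 E-boxes and no full match to the MEF2 box, that of Myh4 held 3 E-boxes and 1 MEF2 box, and that of Pvalb held 1 MEF2 box and no E-box. CACCC, on either strand and not marked, occurred 3 times in Myog, 5 in Mybph, 1 in Myh4 and 2 in Pvalb. The Myog window held 1 stretch that matched the MEF2 box at 9 of its 10 bases, and 15.3% of all matched windows held a stretch at least that close. A promoter entry was matched for 8560 of the 11591 transcripts, and 61.7% of those windows held CANNTG on either strand, 62.5% CACCC, 66.7% CCGCCC and 1.74% the MEF2 box. Of the 108 transcripts over 1.5-fold above every control library, 64 were matched, and of these 73.4% held CANNTG, 68.8% CACCC, 60.9% CCGCCC and 4.69% (3 windows) the MEF2 box. Of the 170 below every control library, 103 were matched, and the shares were 71.8%, 72.8%, 55.3% and 2.91%. A match of letters describes the window and is not a bound site, and a missing match does not show that a factor is absent.

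Thin filament genes were mostly above the day 2 control, 11 higher and 5 lower in sign. Of 16 measured members none was lower past 1.5-fold and 1, Tnnc2, was higher (6.25%), beside 9.14% and 3.91% of all transcripts. The median of 0.43 dropped to 0.13 when libraries were centred within bins of mean expression. The genes are among the most abundant in the table, with a median mean of 1380 FPKM. Acta1, skeletal alpha-actin, was at 351, 3588, 3163 and 4150 FPKM in siCtrl and 363, 3828, 4439 and 4351 FPKM in siKlf5. Tnnt3, the fast troponin T, was at 2208, 3300 and 3287 FPKM in siCtrl day 2, siCtrl day 3 and siKlf5 day 3, and Tnnc2, the fast troponin C, at 1784, 2778 and 3041 FPKM. Actc1, cardiac alpha-actin, was at 2153, 2830 and 2023 FPKM, and Lmod2, an actin-nucleating leiomodin, at 384, 394 and 302 FPKM.

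Z-disc genes included members at both extremes. Of 21 measured, 2 were lower past 1.5-fold (9.52%, near the 9.14% of all transcripts), 4 were higher (19% beside 3.91%) and the median was 0.14. Myoz2, the calcineurin-binding Z-disc protein of slow and cardiac muscle, was at 7.99, 71.5, 376 and 412 FPKM in siCtrl and at 0, 67.4, 166 and 148 FPKM in siKlf5. Its fast-muscle relative Myoz1 went the other way, at 1.58, 15.8, 11.3 and 23.5 FPKM in siCtrl and 0, 1.17, 28.4 and 73.8 FPKM in siKlf5. The log2 differences from siCtrl day 2 were -1.35 (interval -1.82 to -0.91) for Myoz2 and 2.69 (interval 1.54 to 4.03) for Myoz1. Tcap, which caps titin, was at 54.6, 237 and 146 FPKM in siCtrl day 2, siCtrl day 3 and siKlf5 day 3, and Actn2, sarcomeric alpha-actinin, at 385, 681 and 750 FPKM. Csrp3, the muscle LIM protein, was at 186 and 237 FPKM in siCtrl days 2 and 3 and at 129 FPKM in siKlf5 day 3.

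Calcium-handling genes had 1 of 19 lower past 1.5-fold (5.26%) and 3 higher (15.8%), beside 9.14% and 3.91% of all transcripts, with a median of 0.20. Scn4a, the muscle sodium channel, was at 186, 224 and 120 FPKM in siCtrl day 2, siCtrl day 3 and siKlf5 day 3. Trdn, the triadin of the calcium-release complex, was at 21.0, 40.9 and 56.0 FPKM and Bin1, a builder of T-tubules, at 1843, 2582 and 2807 FPKM. Atp2a1, the fast calcium pump, was at 1327, 2172 and 1599 FPKM, between the 2 control days.

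Acetylcholine receptor genes had 2 of 10 members lower past the fold and 2 higher (20% each way), beside 9.14% and 3.91% of all transcripts, with a median of 0.03. The receptor subunits Chrna1, Chrnd and Chrng were at 0.59, 0.47 and 0.87, while Colq, which anchors acetylcholinesterase, and Dok7, an activator of Musk, were at -0.77 and -0.65. Fusion genes were close to the day 2 control, with 1 of 14 lower (7.14%), none higher and a median of 0.02, or 0.12 under median-ratio centring. Tmem8c, the fusogen known as Myomaker, was at 1401, 1635 and 1255 FPKM in siCtrl day 2, siCtrl day 3 and siKlf5 day 3, and Gm7325, known as Myomixer, at 982, 683 and 761 FPKM. The lower member was Cav3, muscle caveolin, at 217, 316 and 119 FPKM.

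Muscle energy genes had 1 of 22 lower past 1.5-fold (4.55%) and 5 higher (22.7%), beside 9.14% and 3.91% of all transcripts, and a median of 0.34 that became 0.18 under centring within bins of mean expression. Ckm, muscle creatine kinase, was at 768, 1094 and 1096 FPKM in siCtrl day 2, siCtrl day 3 and siKlf5 day 3. Ckb, the brain-type enzyme, was the lower member, at 613, 626 and 345 FPKM. Ckmt2, the mitochondrial enzyme of muscle, was at 0, 0, 13.9 and 13.2 FPKM in siCtrl and 4.17, 24.9, 47.5 and 53.0 FPKM in siKlf5. It is 1 of the 5 higher members and reached the mean of 10 only through its siKlf5 values, so that share depends partly on it. Ampd1, the AMP deaminase of fast fibres, was at 18.1, 27.5 and 67.3 FPKM, and myoglobin, Mb, at 511, 1023 and 890 FPKM, in siCtrl day 2, siCtrl day 3 and siKlf5 day 3.

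Over the 7 muscle lists together, 124 genes were measured. Of these 11 (8.87%) were lower past 1.5-fold than siCtrl day 2 and 21 (16.9%) were higher, beside 9.14% and 3.91% of all transcripts, and the median was 0.24, or 0.15 under centring within bins of mean expression. In siKlf5 day 3, 38 lay below both siCtrl day 2 and day 3 (30.7%), 36 between them (29.0%) and 50 above both (40.3%). Over all transcripts those shares were 40.0%, 33.2% and 26.8%. In bulk RNA, fewer cells of a type and less RNA per cell cannot be told apart.

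Isoforms of slow and cardiac muscle and of fast muscle were gathered in 2 further lists after the values had been seen, so their counts describe the choice as much as the data. Of 16 slow and cardiac isoforms measured, 4 were lower past 1.5-fold (25%) and 1 was higher (6.25%), beside 9.14% and 3.91% of all transcripts. The median was -0.11, or -0.29 under bin centring and -0.002 under median-ratio centring. Below both siCtrl days 2 and 3 lay 10 of them (62.5%, beside 40.0% of all transcripts). Of 17 fast isoforms none was lower, 8 were higher (47.1%) and the median was 0.57, or 0.45 under bin centring, with 2 below both control days (11.8%). The slow list was not uniform, as Tnnt1, Tnni1 and Tnnc1, the slow troponins, were at 0.45, 0.49 and 0.44 and Myh7b was at 1.02. It held no member above 1.02, so it left out Mybpc1, the slow-type myosin-binding protein C that lay above every control day. Pvalb (NM_013645, mm9 chromosome 15, 78021548 to 78034586, minus strand), the calcium buffer of fast fibres, was at 3.44, 7.92, 32.9 and 74.9 FPKM in siCtrl and 0, 60.1, 134 and 447 FPKM in siKlf5. Its siKlf5 libraries exceeded siCtrl on days 1, 2 and 3, and day 3 differed from siCtrl day 2 by 3.76 (interval 3.0 to 4.6).

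Cell division genes lay between siCtrl days 2 and 3, and also near siCtrl day 1, since their control course was not steady. For the 57 that fell, the median position was 0.81 in siCtrl day 1, 0.62 in siCtrl day 2 and 0.80 in siKlf5 day 3. All 60 listed genes of DNA replication and mitosis were measured, 6 were lower past 1.5-fold than in siCtrl day 2 (10.0%, near the 9.14% of all transcripts), none was higher, and the median was -0.37, or -0.27 under centring within bins. The median of siCtrl day 3 against siCtrl day 2 was -0.68, and that of siKlf5 day 3 against siCtrl day 3 was 0.32. In siKlf5 day 3, 53 of the 60 (88.3%) lay between siCtrl day 2 and day 3, beside 33.2% of all transcripts. Ccna2, cyclin A2, was at 583, 232, 327 and 194 FPKM in siCtrl and 663, 291, 357 and 243 FPKM in siKlf5. Plk1, a mitotic kinase, was at 185, 78.6 and 120 FPKM in siCtrl day 2, siCtrl day 3 and siKlf5 day 3, and Tk1, thymidine kinase, at 277, 150 and 159 FPKM.

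Genes of cell cycle exit were near the day 2 control, with 1 of 13 lower (7.69%) and none higher, beside 9.14% and 3.91% of all transcripts. The median of -0.07 turned to 0.03 under median-ratio centring. Cdkn1a, the inhibitor p21, was at 1944, 2806 and 2372 FPKM in siCtrl day 2, siCtrl day 3 and siKlf5 day 3. The lower member was Ccnd1, cyclin D1, which drives G1, at 225, 130 and 123 FPKM.

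**Figure D4:**
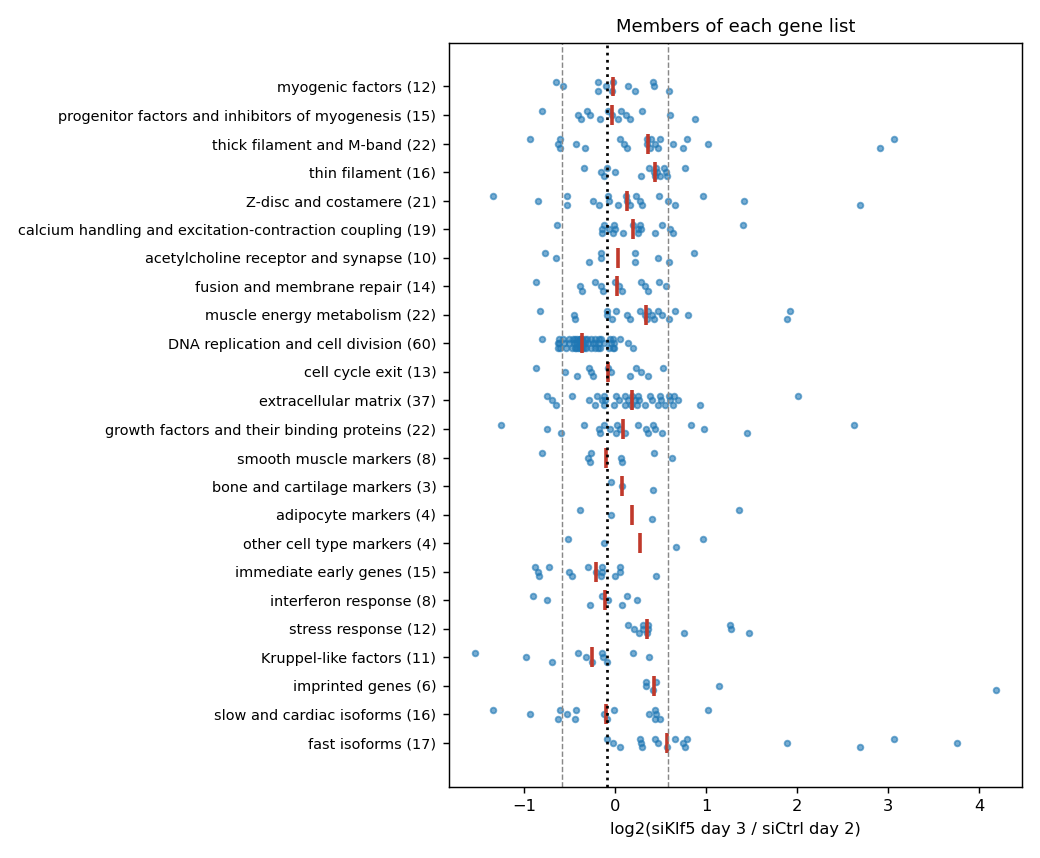
Each point is a gene with a mean of at least 10 FPKM, placed by log2(siKlf5 day 3 / siCtrl day 2) on the x axis within its list, with the number measured in parentheses. Red bars are list medians, the dotted line is the median of all transcripts (-0.09) and dashed lines mark 1.5-fold. The thin filament (0.43) and thick filament (0.37) medians lie to the right, cell division (-0.37) to the left, and the last 2 lists were gathered after the values were seen.

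Transcripts outside the whole control course were then counted. In siKlf5 day 3, 108 transcripts (0.932%) were over 1.5-fold above the highest of the 4 siCtrl libraries and 170 (1.47%) were over 1.5-fold below the lowest. The siKlf5 libraries of days 0, 1 and 2 had 94, 76 and 79 above and 346, 193 and 108 below, so day 3 had the most above and not the most below. With the siCtrl day 2 library left out of the range, a setting chosen after the data were seen, the counts for siKlf5 day 3 were 182 and 209. Of the 108 above, 31 had fewer than 60 reads in both libraries, as did 48 of the 170 below, so part of each set rests on few reads.

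The set above every control day included muscle genes. Pvalb, Myh4, Mybpc1, Myoz1, Ckmt2, Ampd1, Tceal7, Rps6ka1, Ddc and Fgf5 were the 10 farthest above among transcripts with exons of at least 200 bp and at least 50 FPKM in either library. Tceal7, a muscle-expressed elongation factor-like protein, was at 0, 71.0, 103 and 222 FPKM in siCtrl and 15.6, 97.0, 379 and 592 FPKM in siKlf5. Rps6ka1, a ribosomal S6 kinase, was at 1.82, 10.1, 11.3 and 7.77 FPKM in siCtrl and 10.9, 19.7, 45.5 and 58.4 FPKM in siKlf5. The filter on the mean counts the siKlf5 libraries, so genes low in controls, such as Ckmt2 and Rps6ka1, could pass it through them. Of the 124 muscle-list genes, 6 were above the control range past 1.5-fold, Ckmt2 among them, beside 0.932% of all transcripts. None was below it, beside 1.47% of all transcripts, but that count says little. Of the 124, 90 rose at least 2-fold from siCtrl day 0 to day 3. Such a gene had to fall under its low siCtrl day 0 level to count.

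The imprinted gene Grb10, an adaptor that restrains growth-factor signalling, had the largest difference of any list member. It was at 0.857, 1.97, 2.26 and 2.57 FPKM in siCtrl and 1.53, 8.85, 32.1 and 42.9 FPKM in siKlf5. Its log2 difference from siCtrl day 2 was 4.19, with an interval of 3.04 to 5.75. All 6 measured imprinted genes were higher, 2 of them past 1.5-fold (33.3% beside 3.91% of all transcripts), and the median was 0.43. Grb10 is 1 of the 2 and is counted only because of its siKlf5 values, so that share depends on it. With a mean of at least 50 FPKM, which leaves Grb10 out, the median was 0.38.

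Among the 10 farthest below every control day, Il33, an alarmin cytokine, was at 91.5, 124, 132 and 135 FPKM in siCtrl and 22.4, 39.5, 55.4 and 34.0 FPKM in siKlf5, lower on each day. Msln, the surface protein mesothelin, was at 601, 794, 1030 and 1155 FPKM in siCtrl and 194, 337, 370 and 312 FPKM in siKlf5, and no siKlf5 library reached a control value. Adam8, a metalloprotease, was at 173, 232, 110 and 139 FPKM in siCtrl and 137, 124, 60.2 and 30.6 FPKM in siKlf5. Il2rg, a cytokine receptor chain, was at 94.2, 46.3 and 24.0 FPKM in siCtrl day 2, siCtrl day 3 and siKlf5 day 3.

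**Figure D5:**
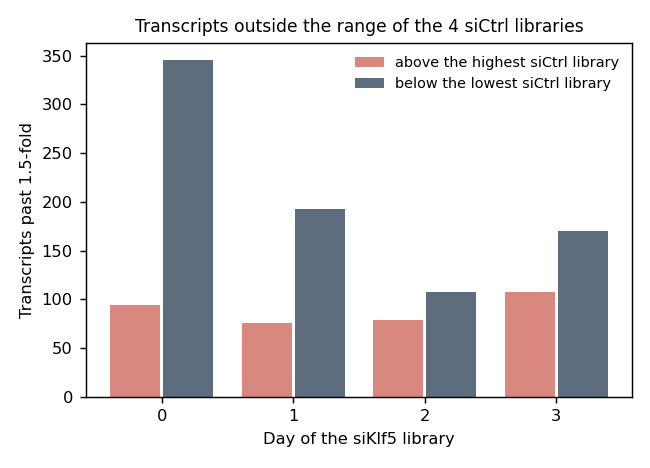
Number of transcripts (y axis) over 1.5-fold above the highest or below the lowest of the 4 siCtrl libraries, for the siKlf5 library of each day (x axis). Day 3 has 108 above and 170 below, and day 0 has the most below, at 346.

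The transcripts with the lowest ratio to siCtrl day 2 were mostly ones that rose in control cells and stayed low in siKlf5. Dnase1l3, a secreted DNase, was at 0, 4.44, 70.7 and 64.5 FPKM in siCtrl and 0, 0, 3.90 and 3.78 FPKM in siKlf5. Ptprf, a receptor tyrosine phosphatase, was at 21.3, 26.5, 121 and 147 FPKM in siCtrl and 14.7, 9.46, 13.2 and 14.3 FPKM in siKlf5, so that siKlf5 day 3 lay below siCtrl day 0. N4bp3 (-2.48), Pstpip1 (-2.12), Clic3 (-2.08), Unc13d (-2.07), Shroom3 (-2.01) and Slc44a4 (-1.92) had the same shape. Dpt, the matrix protein dermatopontin, was at 65.2, 47.3 and 14.7 FPKM in siCtrl day 2, siCtrl day 3 and siKlf5 day 3. Pbx3, a homeodomain partner, was at 110 and 109 FPKM in siCtrl days 2 and 3 and 30.4 FPKM in siKlf5 day 3. Gzme, Mcts2 and 1110001J03Rik were also among the 15 lowest, and their intervals were wide or included 0.

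Growth factors were divided. Of 22 measured, 3 were lower past 1.5-fold (13.6%) and 4 higher (18.2%), beside 9.14% and 3.91% of all transcripts, with a median of 0.08, or 0.14 under bin centring. Fst, the activin and myostatin inhibitor follistatin, was at 2.39, 37.6, 213 and 379 FPKM in siCtrl and 1.97, 39.1, 132 and 89.4 FPKM in siKlf5. Fgf21, a stress-induced hormone of muscle and liver, was at 24.8, 214, 48.7 and 103 FPKM in siCtrl and 29.1, 62.1, 269 and 300 FPKM in siKlf5. Its difference from siCtrl day 2 was 2.62 (interval 1.97 to 3.32). Bmp4, a bone morphogenetic protein, and Igfbp3, a binding protein of insulin-like growth factors, were at 1.45 and 0.98. Igf2, which supports myogenesis, was at 413, 403 and 522 FPKM in siCtrl day 2, siCtrl day 3 and siKlf5 day 3.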

How the data were processed

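PolyA RNA-seq libraries of C2C12 cells, 1 per siRNA and day, were aligned by the authors with STAR to mm9 and counted on RefSeq exons with HOMER (versions used for the RNA-seq not given in the sources used here). Per the file headers, the authors deposited FPKM scaled with a matrix total of 10000000, with at most 3 reads kept per position. FPKM summed to 2278877 to 2500817 per library, so values are compared between libraries only. The 8 log2 columns of the same libraries were not used. Whole reads were recovered from the FPKM steps (100% of 5344 to 6849 transcripts checked per library, within 0.1 read), and gave the depth. Log2 differences used FPKM plus 0.1. Intervals are 95% exact Clopper-Pearson, for counting error only, on reads divided by 6, a divisor chosen to allow for paired and repeated reads. Python 3.11.15, pandas 2.3.3 and scipy 1.17.1 were used, and scripts were tested on simulated data. With 1 library a side, no test was run.

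Not every gene that the rule for named genes allows is named. The rule covered Klf5, Myog, Myl4, measured myogenic factors, the 3 lowest and 3 highest of each other list, and, with exons of at least 200 bp and 50 FPKM in either library, the 15 lowest, the 15 highest and the 10 farthest above and below the controls. The value of 1 myogenic factor is not reported here. Other genes, such as Acta1, Ckm, Tmem8c and Cdkn1a, were named after their values were seen. The comparison, the 22 lists and the rule were chosen with earlier results of these data known.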

Additional observations from a re-analysis of the deposited data

How the results depend on the processing

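Each number rests on 1 library a side, and a library effect and an effect of the siRNA or the day cannot be told apart. No paired analysis was possible because 1 library was set against 1 library of another day. The siCtrl day 2 library was the deepest, and weakly expressed transcripts limit the counts. At a 2-fold cutoff 351 transcripts were lower and 161 higher, with 36 above and 82 below the control range. With a mean of at least 1 the counts were 1979 and 1245, 411 and 358. With a mean of at least 50 they were 432 and 160, 24 and 51. With no filter they were 3168 and 2375, 1126 and 415. With siCtrl day 2 left out of the range, 182 were above.

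For rising transcripts the difference in position, siKlf5 day 3 minus siCtrl day 2, was -0.02, and it turned to 0.03 under median-ratio centring (0.03474), upper-quartile scaling (0.02619) and bin centring (0.03527), 0.00717 for the set at 4-fold and 0.01385 for the set chosen in siKlf5 days 0 and 2. For falling transcripts it was 0.18 and kept its sign in each setting run. The rising position of siCtrl day 2 and siKlf5 day 3 was 0.8696 and 0.8301 with a mean of at least 1, 0.7546 and 0.6924 with no filter, 0.9147 and 0.9219 at 4-fold, 1.27 and 1.225 on the scale of siCtrl days 0 to 1, and 0.9332 and 0.9471 for the siKlf5 set. That of siCtrl day 2 was 0.8542, 0.8725 and 0.8499 under median-ratio, upper-quartile and bin centring. The falling positions were 0.5997 and 0.7887 with a mean of at least 1, 0.6639 and 0.8385 with at least 50, 0.6812 and 0.9439 with no filter, 0.6691 and 0.7864 under median-ratio centring, 0.6521 and 0.7803 under upper-quartile scaling, 0.6809 and 0.7805 under bin centring, 0.5594 and 0.7167 on the scale of siCtrl days 0 to 1, 0.568 and 0.7584 at 4-fold, and 0.719 and 0.8785 for the siKlf5 set. The nearest control by distance was day 3, and day 2 under bin centring. The cell division median was -0.26 under median-ratio centring and -0.27 under bin centring. The list medians kept their sign in all 8 settings for 16 of 24 lists. The exceptions were myogenic factors, progenitor factors, cell cycle exit, fusion, smooth muscle, bone and cartilage, adipocyte and other cell types. The cause of these shifts was not tested.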

Other observations

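Stress response genes lay on one side of the day 2 control in the deposited values. All 12 members were higher in siKlf5 day 3 than in siCtrl day 2, 4 of them past 1.5-fold (33.3%, beside 3.91% of all transcripts), with a median of 0.35. The siCtrl day 2 library was also low beside siCtrl day 3, whose median against it was 0.24. The median of siKlf5 day 3 against siCtrl day 3 was 0.16. The lowest were Xbp1 (0.14), Herpud1 (0.20) and Ddit3 (0.26). Asns, asparagine synthetase, was at 636, 178, 80.6 and 141 FPKM in siCtrl and 621, 65.8, 257 and 223 FPKM in siKlf5. Trib3, Chac1 and Phgdh, further genes of the amino acid response, were at 1.28, 1.26 and 0.76. In siKlf5 day 1 Asns, Trib3 and Chac1 were below siCtrl day 1.

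Of 37 matrix genes measured, 7 were higher past 1.5-fold (18.9%) and 3 were lower (8.11%), beside 3.91% and 9.14% of all transcripts. The median was 0.19, or 0.11 under centring within bins of mean expression. Above both siCtrl days 2 and 3 lay 19 (51.4%, beside 26.8% of all transcripts). The basement membrane collagens Col4a1 and Col4a2 were at 0.69 and 0.59, and Col12a1 at 0.93. Postn, the matricellular protein periostin, was highest, at 20.5, 73.6 and 82.8 FPKM in siCtrl day 2, siCtrl day 3 and siKlf5 day 3. Outside the lists, the carbonic anhydrases Car2 and Car3 were among the 15 highest, at 2.09 and 1.85. Both had their lowest siCtrl value on day 2. Car3 was at 47.2, 163 and 170 FPKM in siCtrl day 2, siCtrl day 3 and siKlf5 day 3, and Car2 at 27.7, 64.9 and 118 FPKM. Immediate early genes had 4 of 15 lower past 1.5-fold (26.7%, beside 9.14% of all transcripts), none higher and a median of -0.21, or -0.11 under median-ratio centring, with Atf3 (-0.88), Nr4a1 (-0.85) and Myc (-0.84) lowest. Interferon genes had 2 of 8 measured lower (25%, beside 9.14%), none higher and a median of -0.12, close to the -0.09 of all transcripts and -0.01 under median-ratio centring. Krüppel-like factors had 3 of 11 lower (27.3%, beside 9.14%), none higher and a median of -0.26, or -0.12 under bin centring. These were Klf5 itself, Klf10 (-0.98) and Klf11 (-0.69). Most smooth muscle markers were measured (8 of 11), with a median of -0.10. Markers of other cells were mostly under the mean of 10. Of these, 3 of 13 bone and cartilage, 4 of 12 adipocyte and 4 of 15 other markers were measured, with medians of 0.08, 0.18 and 0.27. Of the 4 adipocyte markers measured, 2 were lower and 2 higher in sign. Lpl, lipoprotein lipase, was the highest, at 79.4 FPKM in siCtrl day 2 and 205 FPKM in siKlf5 day 3. Cd36 was at 77.4 and 74.9 FPKM.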
